A study of Gallus gallus with 24 samples.

Results

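The collar epithelium is the ring of epithelium at the base of the feather follicle from which the growing feather is made. Cells divide in its lower part, and their descendants move upwards, form barb ridges and fill with keratins and other corneous proteins as they harden into the feather. A collar sample can therefore hold cells at several stages of this path, and how much of each stage it holds depends on where and when in the growth cycle it is taken. The collar epithelium peak genes described here are the 150 of 17108 measured genes whose RNA was most concentrated in that tissue. They were chosen by their measured levels in these same libraries. A gene entered if its mean level in the collar was at least 10 CPM (counts scaled to a library total of 1000000) and at least 2 times the mean of every other tissue, and the 150 with the largest ratio to the next highest tissue were kept. The ratio is the collar mean divided by the next highest mean plus 0.1 CPM. Of the genes past both thresholds, 738 remained after 13 in which 1 sex lay above the other in all 6 tissues had been dropped. The concentration in the collar is thus a condition of entry and was not tested.

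The libraries came from the sickle feather follicles of 4 adult chickens, 2 males (animals 53 and 68, here male 1 and male 2) and 2 females (animals 52 and 120, female 1 and female 2). Each bird gave 1 library from each of 6 tissues. Beside the collar these were the pulp, which is the mesenchyme inside the growing shaft, the dermal papilla below it, the ectoderm that covers this papilla, and a lower and an upper piece of the sheath that lines the follicle. The labels name no treatment, and they state neither breed, exact age nor stage of feather growth. The deposited files give Ensembl identifiers without gene names. None of these identifiers matched the reference table used here, so the members are given by identifier, their functions are not described, and marker genes could not be used to check the dissection.

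Library totals ran from 12514383 to 31404619 counts. Some libraries stood apart in the members' levels. Summed over the 150 genes, the lower sheath of female 1 reached 6739 CPM, whereas the other 3 lower sheath libraries held 409 to 476 CPM. The dermal papilla of female 1 reached 3483 CPM against 442 to 744 CPM in the other 3, and its papilla ectoderm 2087 CPM against 781 to 1110 CPM. In the upper sheath and the pulp the 4 birds lay close together, at 1195 to 1539 CPM and 1085 to 1356 CPM. In an alternative run throughout, 3 libraries known from earlier results to stand apart were left out, namely the lower sheath and dermal papilla of female 1 and the papilla ectoderm of male 1. Levels are bulk values, in which fewer cells of a type and less RNA per cell cannot be told apart.

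In the collar itself the members took 4.46% of all counts in male 1, 5.08% in male 2, 5.35% in female 1 and 6.60% in female 2. Elsewhere they took between 0.0409% (lower sheath of male 1) and 0.674% (lower sheath of female 1). The collar sum was 53743 ± 8996 CPM (SD, n = 4 birds). For 116 members the lowest collar library lay above all 20 libraries of the other tissues. In the other 34 the ranges overlapped, and in 33 of these male 1 had the lowest collar level. The members were chosen for high collar levels in these same libraries, so the separation is in part built in.

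**Figure D1:**
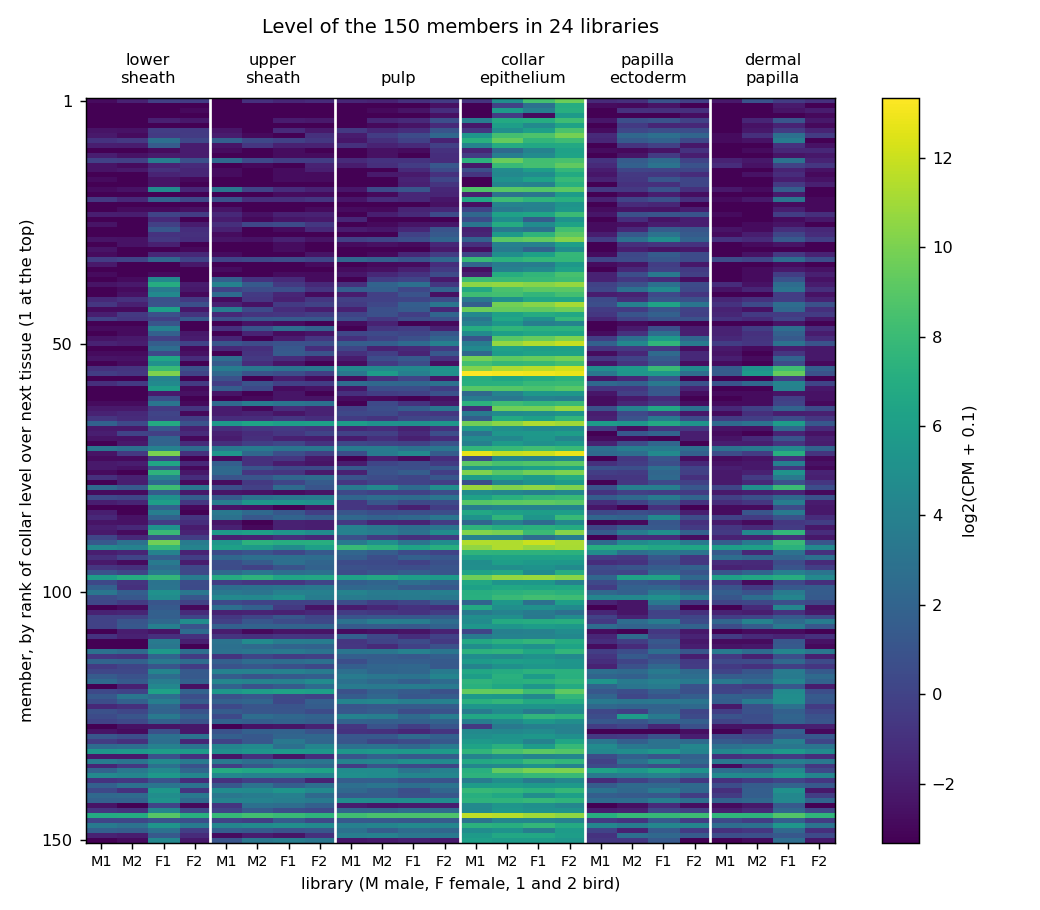
Heat map of the level of each of the 150 members (rows, ordered by the ratio of the collar to the next highest tissue) in each of the 24 libraries (columns, 4 birds within each tissue), as log2(CPM + 0.1) on the colour scale. The 4 collar columns are bright throughout except for male 1 in many upper rows, and the lower sheath and dermal papilla of female 1 are brighter than the other birds' libraries of those tissues.

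The ratios that ordered the members ran from 6.36 to 311, with a median of 20.4. They were at least 10 in 105 members, at least 50 in 36 and at least 100 in 8. The mean collar level ran from 10.5 to 8629 CPM with a median of 84.2 CPM, and 12 members exceeded 1000 CPM. CPM is not corrected for gene length, so these values rank shares of the counts, not molecules. The last genes inside were ENSGALG00000015628.4 (ratio 6.37, collar mean 79.5 CPM, pulp 12.4 CPM) and ENSGALG00000020458.3 (6.36, collar 54.7 CPM, upper sheath 8.50 CPM). The first outside were ENSGALG00000015189.4 (6.25, collar 10.2 CPM) and ENSGALG00000027006.1 (6.23, collar 19.4 CPM), so the boundary falls in an unbroken series.

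The most abundant member was ENSGALG00000029144.1. Its collar level was 10347 CPM in male 1, 8774 in male 2, 8189 in female 1 and 7205 in female 2 (8629 ± 1316, SD, n = 4). ENSGALG00000028374.1 followed at 6709, 3703, 4210 and 7097 CPM in the same order (5429.6 ± 1721). By library total both males exceeded both females in the first gene (1.44-fold between the highest and the lowest bird), and the sexes overlapped in the second. The tests used trimmed-mean scaling, with collar factors of 1.12, 1.04, 0.807 and 0.966 in the same order. With that scaling female 1 was the highest bird in the first gene, so its order of the sexes depended on the scaling. Together these 2 genes made up 38.2% of the members' collar counts in male 1 and 21.7% to 24.5% in the other 3 birds. In the lower sheath ENSGALG00000029144.1 stood at 0.729, 0.540 and 0.932 CPM in male 1, male 2 and female 2, but at 1124 CPM in female 1. ENSGALG00000028374.1 stood at 0.0810, 0.579 and 0.430 CPM there and at 1019.5 CPM in female 1. The 3 other birds thus had about 1 CPM or less of either gene where female 1 had over 1000 CPM. In the dermal papilla female 1 was again the highest, at 672 CPM for the first gene against 1.64 to 51.7 CPM in the other birds.

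ENSGALG00000015704.4 was the member with the highest tissue mean outside the collar. It stood at 3310, 2801, 1959.7 and 1442.5 CPM in the collar of male 1, male 2, female 1 and female 2, and at 299, 383, 369 and 415 CPM in their pulp. In the upper sheath it stood at 183 to 320 CPM and in the papilla ectoderm at 137 to 278 CPM, so it was present at over 100 CPM in every library. Such levels were not the rule: 46 members reached a mean of 10 CPM in at least 1 other tissue, whereas 29 stayed under a mean of 1 CPM in all 5. The next highest tissue was the papilla ectoderm for 49 members, the lower sheath for 38, the pulp for 30, the upper sheath for 24 and the dermal papilla for 9. The place of the lower sheath rested on 1 library. Without the lower sheath of female 1 it was the next tissue for 3 members, the upper sheath for 39, the pulp for 37, the papilla ectoderm for 52 and the dermal papilla for 19.

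The choice of members depended most on female 2. Without that bird 130 of the 150 members still passed both thresholds, and the largest ratio was 127. Without 1 of the other birds 141 to 147 members passed. The lists compared next share 3 birds with the full choice, so part of their overlap is built in. With 1 bird left out, the same rule applied to the other 3 shared 127 (without female 2) to 139 of its 150 genes with the list given here. Genes chosen on 3 birds were also highest in the collar of the bird that had no part in the choice: 150 of 150 in male 2 and in female 2, 147 in female 1 and 136 in male 1. Their median ratio in that bird was 19.8 in male 2, 19.2 in female 2, 8.04 in female 1 and 7.95 in male 1. In female 1 the levels outside the collar were raised, as described above. In male 1 the collar level itself was low, at a median of 62.7% of a member's collar mean against 95.3% to 121% in the other birds.

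The 4 collar libraries differed from each other far more in some members than in others. The highest collar library exceeded the lowest by a median of 2.83-fold. The range was under 2-fold in 51 members, 2- to 4-fold in 37, 4- to 16-fold in 23 and at least 16-fold in 39. Among the 8114 other genes with a collar mean of at least 10 CPM, 36 had a range of at least 16-fold, which is 0.444% against 26.0% of the members. The steadiest member, ENSGALG00000028280.1, chosen after the values were seen, had 184, 176, 176 and 162 CPM in male 1, male 2, female 1 and female 2. At the other end stood the gene with the largest ratio, ENSGALG00000024285.2, with 0.460 CPM in male 1, 29.0 in male 2, 322 in female 1 and 773 in female 2. Its level in each other tissue was between 0 and 1.76 CPM. The gene with the second largest ratio, ENSGALG00000028120.1, had 0 counts in the collar of male 1, which allows up to 0.172 CPM, then 0.894, 7.33 and 125 CPM.

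These 39 members, grouped after their values were seen and by their spread alone, shared 1 order of birds. By library total, male 1 was the lowest collar library and female 2 the highest in all 39. With trimmed-mean scaling female 1 was the highest in ENSGALG00000006521.4 and ENSGALG00000000382.4. Male 2 and female 1 lay between, male 2 being the lower of them in 28 genes. Summed, they held 116 CPM in male 1, 6081 in male 2, 8619 in female 1 and 16757 in female 2. The median gene stood at 0.517, 29.9, 32.5 and 144 CPM in the same order. In male 1, 24 of the 39 were under 1 CPM and 5 had 0 counts. The fold of female 2 over female 1 had a median of 3.09 with quartiles of 1.91 and 5.81, and that of female 2 over male 2 a median of 2.76 with quartiles of 2.23 and 7.30. The genes thus did not differ between those birds by a single factor.

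The remaining 111 members, called steady or steadier only beside the 39, showed the order more weakly. Among them 37 had a range of 2- to 4-fold and 23 of 4- to 16-fold. Male 1 was the lowest collar library in 55 of them, female 2 the highest in 37, and both held in 18. Of the 8114 other genes with a collar mean of at least 10 CPM, male 1 was lowest in 2022 and female 2 highest in 1038. The summed collar level of the 111 members was 44481 CPM in male 1, 44765 in male 2, 44891 in female 1 and 49261 in female 2 (45849.7 ± 2281, SD, n = 4). These sums are by library total, and with trimmed-mean scaling female 1 held the highest. Across these 111 genes, the log2 profiles of any pair of collar libraries correlated with Pearson's r of 0.884 to 0.958. Across the 39 the same r was 0.385 to 0.568 for pairs with male 1 and 0.782 to 0.877 for the other pairs. These are descriptions over genes that share libraries and are not independent replicates. The 39 also led the list: 28 of the 36 members with a ratio of at least 50 were among them, and all 8 with a ratio of at least 100. Of the 36 other collar genes with as wide a range, 22 were lowest in male 1, 9 were lowest in male 1 and highest in female 2, and 7 were highest in male 1. The male 1 collar library had 17410206 counts, the fewest of the 4 (the others had 20747588 to 24604975), and the part of depth, sampling position or bird in the order was not tested.

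**Figure D2:**
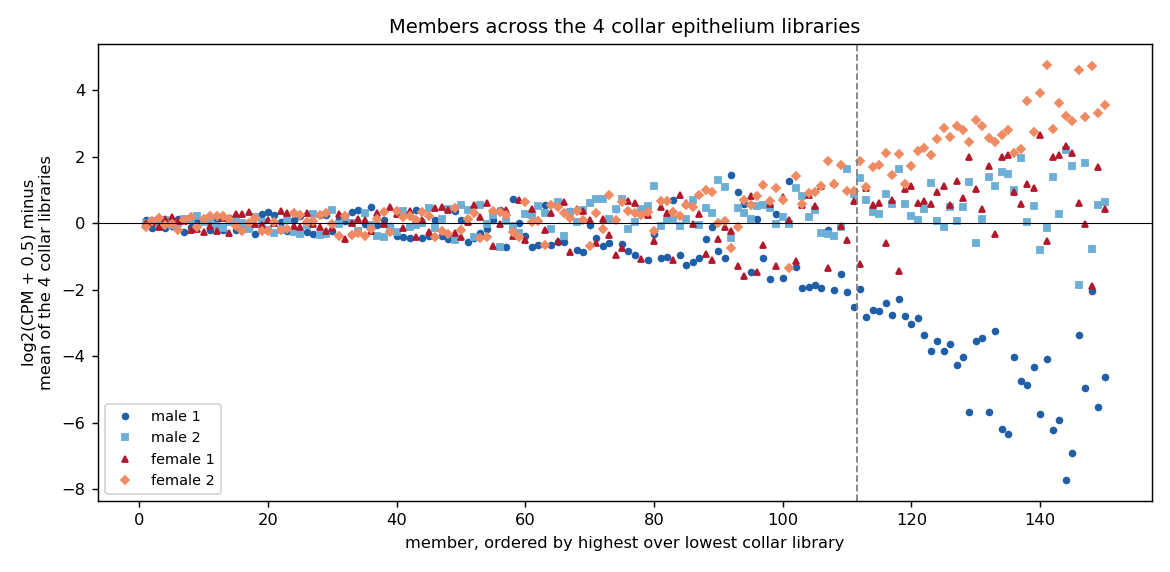
Each member's level in the 4 collar libraries, as log2(CPM + 0.5) minus the mean of the 4 (vertical axis), with members ordered from the smallest to the largest range (horizontal axis) and birds by colour and shape. Right of the dashed line lie the 39 members with a range of at least 16-fold, in all of which male 1 is lowest and female 2 highest.

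Outside the collar the variable members stood at far lower levels, and the order of birds differed by tissue. In the pulp their summed level was 12.4 CPM in male 1, 15.6 in male 2, 26.8 in female 1 and 75.8 in female 2, the order of the collar sums. In the papilla ectoderm it was 11.7 CPM in male 1, 92.3 in male 2, 534 in female 1 and 64.8 in female 2, so that male 1 was again lowest but female 1 was highest. In the sheaths and the dermal papilla it stayed between 3.36 and 45.5 CPM. Male 2, not male 1, was lowest in both sheaths, and female 1, not female 2, was highest in the lower sheath and the dermal papilla. Within male 1 alone, 12 members were not highest in the collar, and all 12 belonged to the 39. Of these 12, 9 had at most 10 counts in every library of that bird, so their order of tissues there is at the limit of detection.

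**Figure D3:**
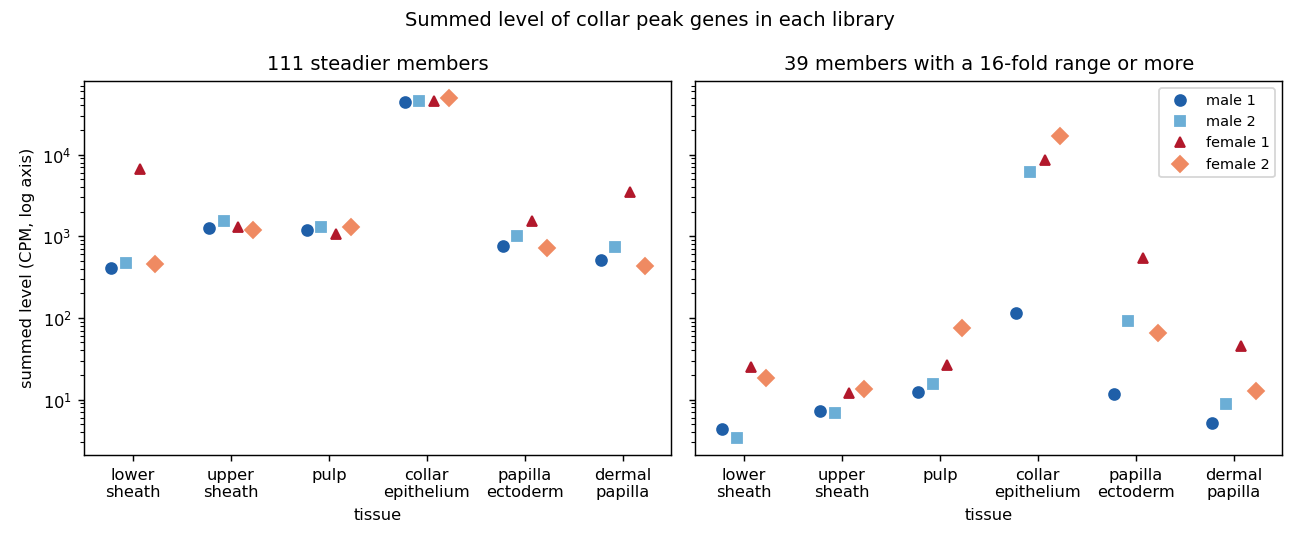
Summed level in CPM (log axis) of the 111 steadier members (left) and of the 39 members with a range of at least 16-fold across collar libraries (right) in each tissue, with 1 point for each bird. The sum of the 111 ran from 44481 to 49261 CPM in the collar and was raised in the lower sheath and dermal papilla of female 1, while that of the 39 spread from 116 to 16757 CPM in the collar.

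ENSGALG00000027167.1, the variable member with the highest collar mean, shows the pattern in a single gene. Its collar levels were 12.7, 1603, 2673 and 3695 CPM in male 1, male 2, female 1 and female 2. In the papilla ectoderm it stood at 3.59, 20.7, 189 and 10.8 CPM. In the lower sheath, where the abundant steady members exceeded 1000 CPM in female 1, it stood at 2.89 CPM in that library and at 0.154 to 0.932 CPM in the other 3.

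The lower sheath of female 1 thus held the steady members but hardly the variable ones. The 111 steady genes summed there to 6714 CPM, 14.96% of their sum in the collar of the same bird, and the 39 to 24.8 CPM, 0.287% of theirs. By range class, the median member stood at 13.1% of its own-bird collar level when its range was under 2-fold, 11.5% at 2- to 4-fold, 4.21% at 4- to 16-fold and 0.241% at 16-fold or more. Across the 150 members the log2 profile of this sheath library correlated with the collar of male 1 at a Pearson's r of 0.926. With the other collars r was 0.753 (male 2), 0.689 (female 1, the same bird) and 0.538 (female 2). The lower sheath libraries of the other 3 birds correlated with any collar library at 0.224 to 0.449. In the dermal papilla of female 1 the steady members stood at 7.66% of their own-bird collar sum and the variable ones at 0.528%. In its papilla ectoderm the sums stood at 3.46% for the steady and 6.20% for the variable members, the latter with 189 CPM of ENSGALG00000027167.1 and 103 CPM of ENSGALG00000028843.1 in a sum of 534 CPM. The median variable member stood at 2.70% of its own-bird collar level there, below the medians of the other range classes (3.30% to 7.40%). Among the lower sheath libraries 126 of 150 members were highest in female 1, 57 of them at more than 10 times each of the other 3. In the dermal papilla these counts were 133 and 35, and in the papilla ectoderm 104 and 5. Shares over all genes are not given here, so the counts are not read as particular to the members. Collar tissue in these libraries and expression of the members in the sheath and papilla of this bird cannot be told apart here.

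**Figure D4:**
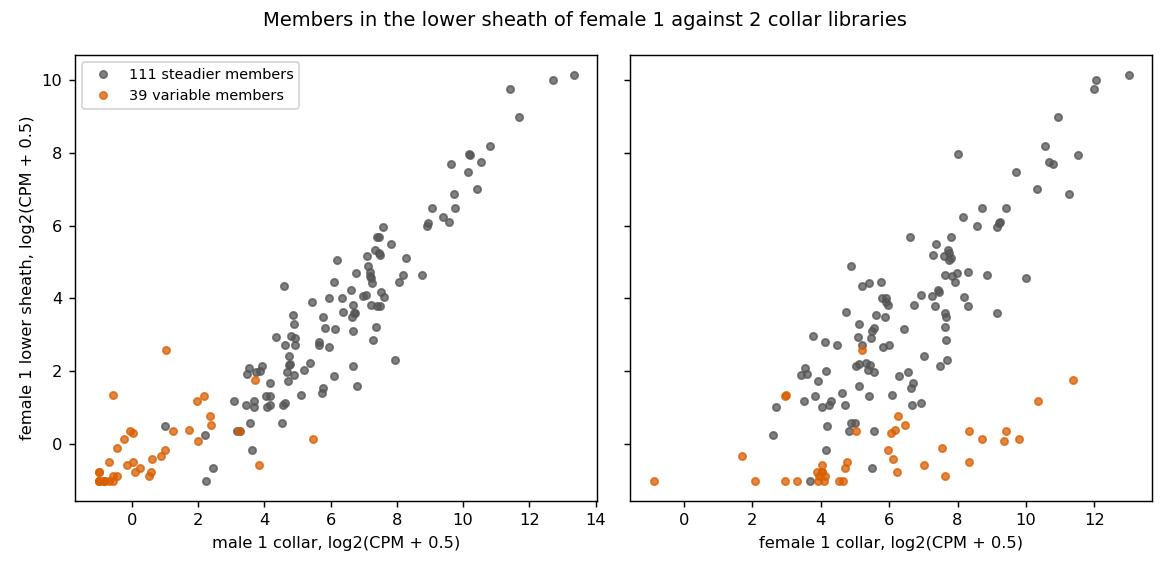
Level of each member in the lower sheath of female 1 (vertical axis) against its level in the collar of male 1 (left) and in the collar of female 1 (right), all as log2(CPM + 0.5), with the 39 variable members in orange. The points follow 1 band against male 1 (r of 0.926), while against female 1 the variable members fall below the band of the 111 others (r of 0.689).

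Whether the members differ between the sexes was asked in each tissue. The rule of choice had dropped 247 genes in which 1 sex lay above the other in all 6 tissues, 13 of them past both thresholds. These genes were not taken out of the backgrounds over all genes, so part of a lower share among the members is built in. In the collar 0 of the 150 members were called by edgeR's quasi-likelihood test at an adjusted p of 0.05. The background over 14077 genes was 0.17% called higher in males and 0.76% called higher in females. At an unadjusted p under 0.05 there were 20 members (13.3%), against 19.97% of all genes, and DESeq2 called 8 members, all higher in females, against 9.72% of the genes it tested. The smallest adjusted p among the members belonged to ENSGALG00000024285.2, whose values are given above: log2 difference -5.40 ± 1.23 (SE), male minus female, adjusted p = 0.0528. Both females exceeded both males in this gene, yet each sex also held a wide gap between its birds.

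The members nevertheless leaned to the females. With the scaling of the test, 128 of 150 had a log2 difference below 0, with a median of -0.61 against -0.09 over all genes tested. With CPM by library total the lean was smaller, 108 of 150 with a median of -0.33, while the median of the 8264 genes with a collar mean of at least 10 CPM was 0.17. Both females exceeded both males in 56 members (37.3%) and both males exceeded both females in 12 (8.0%). Among the 8264 genes these shares were 17.4% and 35.5%. The scaling moved these shares and the sign of the median over genes (-0.12): with trimmed-mean scaling they were 49.3% and 3.33% of the members against 32.9% and 18.9% of the genes. All 39 variable members were lower in the males on average, with a median of -3.48 by library total and -3.73 with trimmed-mean scaling. That side follows from male 1 being lowest and a female highest in each of the 39, so it adds no separate evidence on sex. The 111 others had medians of -0.12 and -0.41, each also below that of the 8264 genes (0.17 and -0.12). Without the collar library of male 1 the lean was smaller. By library total 83 of 150 members were then higher in the females (median -0.12), and with the scaling of the test 114 were (median -0.47, against -0.09 over all genes). Of the 111 steadier members, 61 were then higher in the males and 50 in the females by library total (median 0.05). Without the collar library of female 2 the median of the 111 was -0.05, with 51 higher in the males and 60 in the females. Without that of male 2 or of female 1 it was -0.28 or -0.19, against -0.12 with all 4. Their lean by library total thus depended on the collar libraries kept. The medians over the 8264 genes in these settings are not given here. Without the collar library of male 2, the median of the 150 members with the scaling of the test was -1.07, against -0.12 over all genes. Male 1 was then the only male collar library, and it is the lowest in all 39 variable members. The larger lean in that setting therefore adds no separate evidence on sex.

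In the other 5 tissues edgeR again called 0 members for sex, so that 0 were called in at least 1 of the 5. Over all genes the shares called were 0.483% in the lower sheath, 0.59% in the upper sheath, 0.952% in the pulp, 2.04% in the papilla ectoderm, 0.398% in the dermal papilla and 2.76% in at least 1 of these tissues. Unadjusted p-values under 0.05 were found for 71 members in the lower sheath, 32 in the dermal papilla, 5 in the upper sheath, 4 in the papilla ectoderm and 2 in the pulp. As shares of the members these were 47.3%, 21.3%, 3.33%, 2.67% and 1.33%, against 8.79%, 5.80%, 7.49%, 16.8% and 8.11% of all genes, so the members lay above the background in the first 2 tissues and below it in the other 3. The members were chosen for low levels outside the collar, with a median mean of 0.986 to 1.52 CPM in these tissues. Few counts limit what could be called there, so low shares and the 0 calls do not show that the sexes are alike. DESeq2 called 43, 12, 1, 3 and 4 members in the same order. These were 28.7%, 8.0%, 0.667%, 2.0% and 2.67% of the members, against 2.36%, 1.40%, 1.87%, 6.30% and 2.67% of the genes it tested. All DESeq2 calls in the lower sheath and dermal papilla were higher in females, the side of the raised libraries of female 1. The median log2 difference, male minus female, was -2.71 in the lower sheath and -2.13 in the dermal papilla. Without the lower sheath and dermal papilla of female 1 and the papilla ectoderm of male 1 it was -0.38 and -0.00273. In the upper sheath it was 0 and in the pulp -0.35. In the papilla ectoderm the median was -0.49 with all libraries, and 0.56 when the lower sheath, dermal papilla and papilla ectoderm of female 1 were left out, so its direction rested on female 1. The test of whether the sex difference itself differed between the 6 tissues called 0 members. Over all genes it called 0.0071%. There were 20 members (13.3%) at an unadjusted p under 0.05, against 8.89% of all genes. DESeq2 called 10 members (6.67%), against 3.35% of the genes it tested.

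Among the tissues outside the collar, the papilla ectoderm is also an epithelium of the follicle base. Its level of the members was compared with the mean of both sheaths, the pulp and the dermal papilla, a contrast that uses no collar library. By edgeR's test 43 of the 150 members (28.7%) were higher in the papilla ectoderm and 7 (4.67%) were lower, beside 22.7% higher and 21.1% lower among all 14077 genes. The median log2 difference of the members was 0.86 against -0.02 for all genes. In the reported fit the share of members called higher is close to the background share, and the share called lower is below it. Outside the collar the members had a median mean of 0.986 to 1.52 CPM by tissue. Few counts limit what could be called lower there, so the low share is in part built in. The members were chosen for levels outside the collar that are low beside the collar, and the tissues of a bird share an animal. With the animal as a block 46 were called higher and 7 lower, among 6546 genes called, against 6160 genes called in the reported fit. Without the 3 libraries that stand apart the median log2 difference of the members was 1.80, against -0.06 for all genes. Without the papilla ectoderm of female 1, which left 1 library in a group, it was 0.20, against -0.11 for all genes. The size of the difference thus depended on which libraries were kept.

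The variable and the steady members are given separately, as a description: the groups were formed after their values were seen, and the difference between them was not tested. The median level of the 39 outside the collar was between 0 and 1.52 CPM in each library, so many of their log2 differences rest on few counts. Of the 39, 38 had a log2 difference above 0, 21 were called higher and 0 lower, with a median of 3.09. Of the 111 others, 71 were above 0, 22 were called higher and 7 lower, with a median of 0.42. The papilla ectoderm was the next highest tissue for 32 of the 39 and for 17 of the 111. The greatest differences among the called members, named after their values were seen, were those of ENSGALG00000026219.1 and ENSGALG00000028843.1, both variable in the collar. The first had 0.147, 2.29, 7.83 and 2.66 CPM in the papilla ectoderm of male 1, male 2, female 1 and female 2, and at most 2.45 CPM in any library of the 4 other tissues (log2 difference 5.72 ± 1.12 SE, adjusted p = 0.00135). The second had 1.62, 15.5, 103 and 7.10 CPM, and at most 8.89 CPM elsewhere outside the collar (5.51 ± 0.86, adjusted p = 0.000129). By library total both males in the first gene, and male 1 and female 2 in the second, lay within the range of the 4 other tissues. With the trimmed-mean scaling of the test, male 2 in the first gene and female 2 in the second lay above that range. The highest papilla library was that of female 1 in both. Of the 43 members called higher, 0 had every papilla ectoderm library above all 16 libraries of the 4 tissues in CPM by library total. The share of all called genes without such overlap, higher or lower, is not given here. The count is therefore not read as particular to the members.

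**Figure D5:**
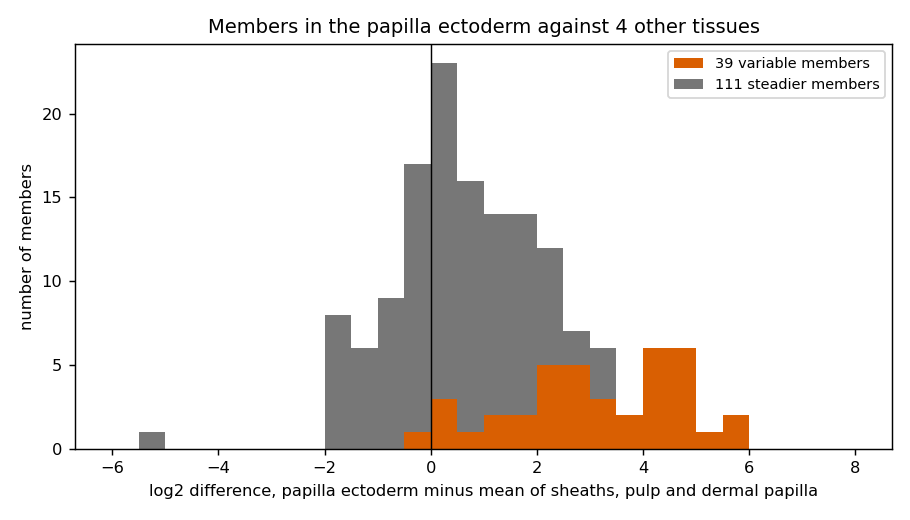
Number of members (vertical axis) by log2 difference between the papilla ectoderm and the mean of both sheaths, pulp and dermal papilla (horizontal axis, in steps of 0.5), with the 39 variable members in orange stacked under the 111 others in grey. The variable members lie to the right (median 3.09) and the others around 0 (median 0.42).

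On the lower side, ENSGALG00000011331.4 was the only called member with every papilla ectoderm library below the 16 others in CPM by library total. It stood there at 10.3, 13.5, 15.98 and 7.04 CPM, against 16.2 to 20.4 CPM in the upper sheath, 19.2 to 31.3 CPM in the pulp, 19.0 to 50.9 CPM in the lower sheath and 19.2 to 45.3 CPM in the dermal papilla (log2 difference -0.68 ± 0.23 SE, adjusted p = 0.0262). With the trimmed-mean scaling of that test, the papilla ectoderm of male 2 (factor 0.733) lay above the upper sheath of female 1 (1.12). The groups thus overlapped with that scaling. In the collar the gene was steady, at 175, 184, 226 and 238 CPM. Its call was lost without the papilla ectoderm of female 2 (adjusted p = 0.157) or of male 1 (0.0895), and without the 3 libraries that stood apart (0.0648). Without the papilla ectoderm of male 2, which left 1 library in a group, the median log2 difference of the members was 0.40. Over all genes it was then -0.16.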

How the data were processed

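RNA-seq was done on polyadenylated RNA extracted with TRIzol (Illumina TruSeq kit, per the labels). The authors deposited raw counts per gene. STAR 2.4.1d, HTSeq 0.6.0, edgeR and the build galGal4 are named in the submitters' processing notes. No source used here gives the strand setting, annotation release or read filters, so counts of overlapping, antisense or near-identical genes are uncertain.

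CPM values and the choice of members used each file's total. Tests used edgeR 4.0.16 in R 4.3.3 (TMM scaling, filterByExpr with a minimum count of 10, glmQLFit, glmQLFTest) on all 24 libraries with a mean for each of 12 groups of 2 libraries and 12 residual degrees of freedom. The Benjamini-Hochberg adjustment ran over 14077 genes, which included all 150 members; the 3031 genes left out held 0.00878% of the counts. A member passed the filter through its collar libraries. SE values come from the F statistic. P-values rest on 2 animals per sex. Fitting was tested on simulated data. DESeq2 1.42.0 was an alternative.

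Tissues of 1 bird come from the same animal. Their deviations from the tissue means correlated at a mean of 0.324 within a bird and -0.107 between birds. Deviations from a mean sum to 0 over the birds of a tissue. The value between birds thus largely follows from the one within and is no separate result. The animal as a block was an alternative.

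The members, the gene groups and the tests were chosen with earlier results of these data known. Genes were named by a fixed rule: the largest ratios, the highest levels, those at the boundary, and called genes whose groups did not overlap, at most 2 each. Additions made after values were seen are stated. Of 25635 reference rows (assembly GRCg7b), 0 matched the identifiers, and no sequences are shown. One count was worth 0.0318 to 0.0799 CPM; the limit for 0 counts is 3 counts and covers counting error only.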

Additional observations from a re-analysis of the deposited data

Results flagged for a closer look

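The gap between the highest or lowest bird and the nearest other, as a share of the range over 4 birds, was above Dixon's 95% critical value in 27 of 88 groups examined. That value is passed by about 1 in 20 groups when values are normally distributed. Here CPM values were used, some groups rest on few counts and some genes were named after their values were seen. The 27 therefore do not measure an excess over chance. In the lower sheath the bird apart was female 1: the share was 0.989 for the summed members, 0.99 for the 111 steady members, 1 for ENSGALG00000029144.1 and for ENSGALG00000028374.1, 0.996 for ENSGALG00000028280.1, 0.995 for ENSGALG00000020458.3, 0.925 for ENSGALG00000015628.4, 0.917 for ENSGALG00000015704.4 and 0.879 for ENSGALG00000011331.4. In the dermal papilla it was again female 1, with 0.901 for the summed members, 0.899 for the 111, 0.994 for ENSGALG00000028374.1, 0.982 for ENSGALG00000020458.3, 0.978 for ENSGALG00000015704.4, 0.925 for ENSGALG00000029144.1 and 1 for ENSGALG00000028120.1. In the papilla ectoderm it was female 1 for the 39 variable members (0.846), ENSGALG00000027167.1 (0.907), ENSGALG00000028374.1 (0.864) and ENSGALG00000028843.1 (0.863), and male 1 for ENSGALG00000028280.1 (0.897).

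In the upper sheath male 1 stood apart for ENSGALG00000028374.1 (0.908), ENSGALG00000011331.4 (0.892) and ENSGALG00000026219.1 (1), the last at a single count. Female 2 stood apart in the collar for the 111 steady members (0.914) and ENSGALG00000028120.1 (0.942), and in the pulp for the latter (1, with 0 counts in the other 3 birds). These shares are by library total, and with trimmed-mean scaling female 1 held the highest collar sum of the 111. Sets and genes share libraries, so these groups are not independent.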

How the results depend on the processing

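Members called for sex in the collar numbered 0 in the reported fit, 1 with RLE size factors, 8 with DESeq2 and 2 without the 3 libraries that stand apart; leaving out single collar libraries gave 0 to 23, with 23 without male 2 (of 223 genes called) and 2 without female 2. Members called for sex in at least 1 other tissue numbered 0, but 52 with DESeq2 (of 1384 genes called) and 1 without the 3 libraries (of 425); leaving out single birds gave 0 to 51, the 51 without female 2 (of 231). The interaction called 0 members, and 10 with DESeq2 (6.67% of the members, against 3.35% of the genes it tested). For the papilla ectoderm 50 members were called, 26 to 43 without single libraries of that tissue, 53 with the replicate block (the animal) and 71 without the 3 libraries. An alternative without the lower sheath, dermal papilla and papilla ectoderm of female 1, added after seeing the data, left the first 3 counts at 0 and the last at 50, of which 37 were the same genes. For the papilla ectoderm 6160 of all genes were called, and 6546 with the block. Each setting without a papilla ectoderm library, and the one without the 3 libraries, left 1 library in a group. Counts called there are not read as particular to the members. The members' median log2 difference was 0.86 in the reported fit. It was 0.20 without the papilla ectoderm of female 1, 0.40 without male 2, 0.81 without male 1 and 0.94 without female 2. Without the 3 libraries it was 1.80, and over all genes these medians lay between -0.16 and -0.02. The rule of choice under other settings shared 127 (without female 2) to 146 of its genes with the 150 members, or all but 1 without the lower sheath of female 1. Over all genes, sex in the collar called 131, against 1217 with DESeq2, 418 without the 3 libraries, 61 with the collar libraries alone and 37 (without male 1) to 1948 (without female 2) when single collar libraries were left out; the causes were not tested. A group of 2 birds limits each sex comparison, and a difference of under 0.1 CPM is near single counts.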
